A study of Mus musculus with 12 samples.

Results

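The gene set examined here holds 39 genes that drive or mark cell proliferation: genes of DNA replication and the G1/S transition, genes of G2 and mitosis, the D-type cyclins with their kinase Cdk4, and the inhibitors of cyclin-dependent kinases (CDKs). The genes were listed by name, and each was read by 1 probe set, the one with the highest mean over the 12 arrays among the probe sets that name it alone. Of the 39 genes, 38 were measured among 18193 genes in all. They were 15 replication and G1/S genes, 16 G2 and mitosis genes, 3 D-type cyclins and Cdk4, and 3 CDK inhibitors. Ccnb1 had no probe set naming it alone in the table used here and was not analysed. All 38 genes had a mean above 6.28, the median of all values on the log2 scale.

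A cell enters the cycle when D-type cyclins activate Cdk4 and Cdk6, which phosphorylate the RB protein and free E2F transcription factors. E2F then switches on the genes of DNA synthesis, among them the E-type cyclins and the MCM helicase, and the mitotic genes follow later in the cycle under a second programme that acts through CHR and CCAAT promoter elements. In the limb bud, the mesenchyme proliferates while the limb grows out, and cells that fuse to muscle leave the cycle under CDK inhibitors of the Cip/Kip family. Lmx1b is the LIM homeodomain factor that gives the dorsal mesenchyme its identity.

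Pooled total RNA from forelimbs and hindlimbs of C57BL/6 embryos was hybridised to 12 Affymetrix arrays, 2 for each of 6 groups. The groups were wild-type (WT, Lmx1b +/+) and homozygous knockout (KO, Lmx1b -/-) embryos at 11.5, 12.5 and 13.5 days post coitum (dpc). The tissue was the limb bud with its girdle at the first pair of stages, and at 13.5 dpc the distal limb alone, labelled handplate. The duplicates of a group came from different embryos, in pools of 6 limbs per the extraction protocol, or of 3 at 12.5 dpc per the series text. No treatment is named for any group, and the allele carried by the KO embryos is given only by its genotype. The array names in the labels carry 1 series prefix per stage that both genotypes share, so that stage, array series and, at 13.5 dpc, dissected part cannot be told apart.

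Lmx1b read 9.28 to 10.27 in the 6 WT arrays and 5.60 to 8.88 in the 6 KO arrays, with every KO array below every WT array. The KO minus WT difference was -3.80 ± 0.35 at 11.5 dpc, -2.66 ± 0.35 at 12.5 dpc and -2.05 ± 0.35 at 13.5 dpc, and the last was not called (adjusted p = 0.00872, 0.0476 and 0.153, limma). Among the KO arrays, the second array at 13.5 dpc was highest, at 8.88. No source used here gives whether the probe set lies within the deleted sequence. All 10 limb mesenchyme markers lay above the median of all values. Differences are given on the log2 scale with their standard error from limma, fitted to all 12 arrays, and a difference was called at an adjusted p (Benjamini-Hochberg over 18193 genes) under 0.05. RMA values of different probe sets are not on a common scale, and no level was set against that of another gene.

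**Figure D1:**
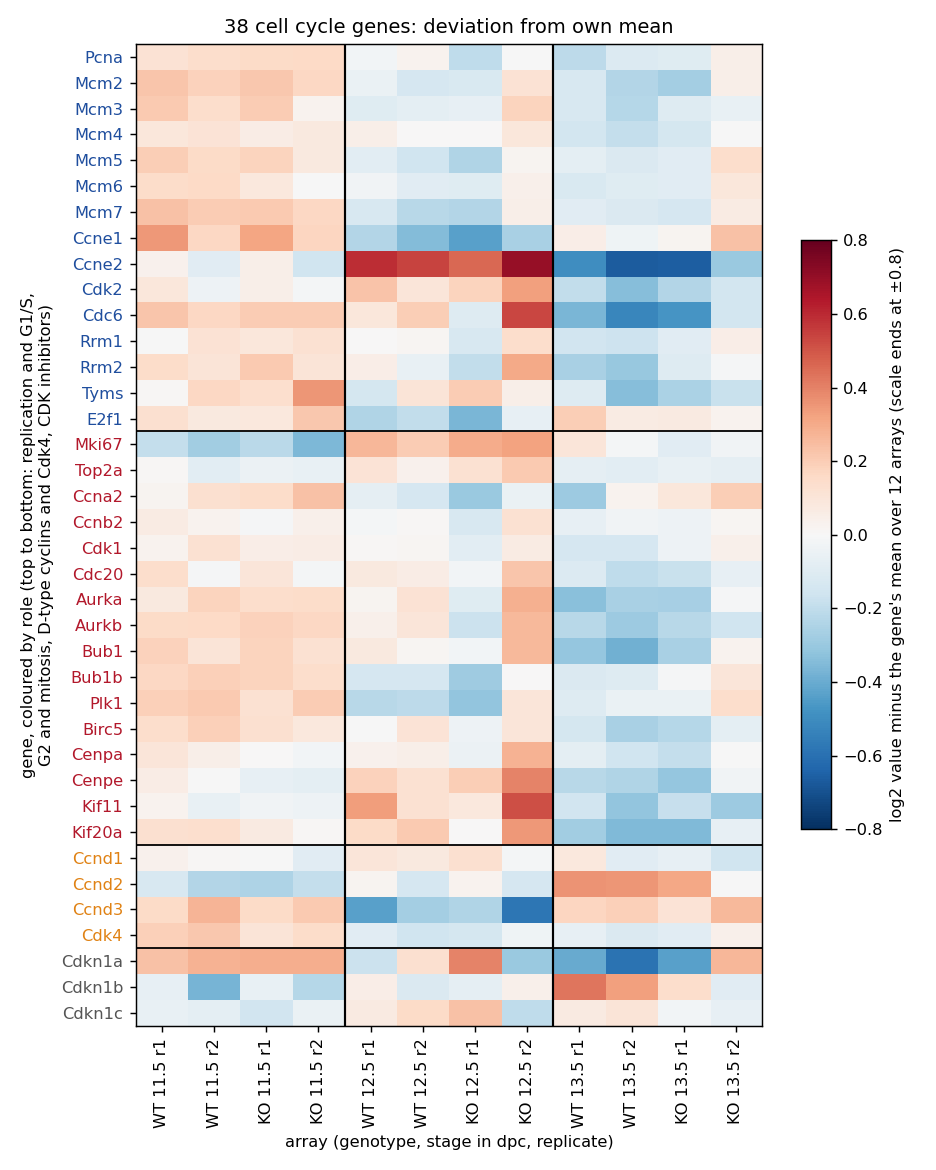
Deviation of each of 38 cell cycle genes (rows, in order of role) from its own mean over 12 arrays, in log2 units, with arrays in columns ordered by stage and genotype. Blue is below and red above the gene's mean. Ccne2 is reddest in the 4 arrays at 12.5 dpc and bluest at 13.5 dpc, and the second KO array at 12.5 dpc is redder than the first in 30 of 31 replication and mitosis genes.

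Promoter sequences are shown for 6 members whose level changed with stage, because replication and mitotic genes are known for different promoter elements. RefSeq promoters (GRCm38.p6) were matched by symbol for 31 of the 39 genes, with 34 start sites. Cdkn1c, Ccne2, Mcm4, Ccnd2, Kif20a, Ccna2, Aurkb and Ccnd1 are named only. The 250 bases before each start were searched on both strands for the CHR (TTTGAA or TTCGAA), for CCAAT, and for an E2F site spelled TTTCCCGC, TTTGGCGC or TTTCGCGC. Matches to different motifs overlapped in 0 of the 34 promoters. Each sequence runs 5′ to 3′ in the direction of the gene and ends at the base before the start, with the matches in capitals. A match on the opposite strand appears as its reverse complement.
Mcm7 (GRCm38.p6, chr5:138171884-138172133, minus strand): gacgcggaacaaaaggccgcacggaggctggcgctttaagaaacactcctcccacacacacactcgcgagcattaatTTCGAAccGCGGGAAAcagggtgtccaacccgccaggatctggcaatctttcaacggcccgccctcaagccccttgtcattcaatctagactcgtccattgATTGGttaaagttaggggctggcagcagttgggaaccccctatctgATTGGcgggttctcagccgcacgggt
Ccne1 (GRCm38.p6, chr7:38107491-38107740, minus strand): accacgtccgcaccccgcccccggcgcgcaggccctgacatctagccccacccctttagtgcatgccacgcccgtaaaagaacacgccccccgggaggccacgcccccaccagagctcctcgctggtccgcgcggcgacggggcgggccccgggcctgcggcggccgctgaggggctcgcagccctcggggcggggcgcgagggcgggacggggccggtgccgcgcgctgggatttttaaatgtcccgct
Cdk2 (GRCm38.p6, chr10:128705052-128705301, minus strand): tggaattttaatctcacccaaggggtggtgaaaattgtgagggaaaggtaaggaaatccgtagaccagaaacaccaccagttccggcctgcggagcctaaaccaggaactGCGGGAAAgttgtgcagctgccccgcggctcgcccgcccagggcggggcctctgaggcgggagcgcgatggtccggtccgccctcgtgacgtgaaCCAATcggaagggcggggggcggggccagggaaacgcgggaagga
Mki67 (GRCm38.p6, chr7:135716380-135716629, minus strand): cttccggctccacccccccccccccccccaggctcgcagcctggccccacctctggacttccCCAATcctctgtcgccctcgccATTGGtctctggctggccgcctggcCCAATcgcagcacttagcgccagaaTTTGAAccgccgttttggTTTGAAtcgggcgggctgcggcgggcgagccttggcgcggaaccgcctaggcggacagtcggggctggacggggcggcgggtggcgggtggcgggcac
Cenpe (GRCm38.p6, chr3:135212313-135212562, plus strand): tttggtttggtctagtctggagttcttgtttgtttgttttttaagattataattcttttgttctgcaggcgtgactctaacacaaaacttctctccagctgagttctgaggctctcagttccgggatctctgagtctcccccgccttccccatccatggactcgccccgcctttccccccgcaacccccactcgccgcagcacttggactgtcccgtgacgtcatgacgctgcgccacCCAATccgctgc
Kif11 (GRCm38.p6, chr19:37376132-37376381, plus strand): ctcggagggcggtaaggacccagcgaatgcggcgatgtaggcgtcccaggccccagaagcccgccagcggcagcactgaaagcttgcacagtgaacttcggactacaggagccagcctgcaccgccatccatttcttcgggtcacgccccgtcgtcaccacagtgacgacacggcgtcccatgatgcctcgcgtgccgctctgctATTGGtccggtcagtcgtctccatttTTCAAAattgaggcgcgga

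The Mcm7 promoter shown, the first of 2 for that gene, held all 3 kinds of match. Its E2F site lay 165 to 158 bases before the start. The second Mcm7 promoter held 1 CCAAT match and neither a CHR nor an E2F match. In Mki67, 2 CHR matches lay 116 to 111 and 98 to 93 bases before the start, downstream of 3 CCAAT matches. The Ccne1 window held none of these letters. Over the set, CCAAT was found in 13 of 14 promoters of G2 and mitosis genes (92.9%) and in 10 of 14 of replication and G1/S genes (71.4%), against 33.8% of all 32851 promoters. The CHR was found in 7 of 14 (50%) and 2 of 14 (14.3%), against 17.1% of all. An E2F site was found in 1 of 14 (7.14%) and 5 of 14 (35.7%), against 1.53% of all. A match is a description of these letters and not a measured site.

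The first question was whether loss of Lmx1b changed the expression of proliferation genes. None of the 38 genes was called between KO and WT, either in the mean over the 3 stages (limma; 0.203% of all genes called, 0.0165% higher and 0.187% lower) or at 11.5 dpc (0.0165%, all lower), 12.5 dpc (0.0385%, with 0.011% higher and 0.0275% lower) or 13.5 dpc (0.0275%, all lower). At an unadjusted p under 0.05, 0, 0, 0 and 2 members passed in these comparisons, and the smallest adjusted p values were 0.854, 1, 0.666 and 0.762. The median KO minus WT difference of the members was 0.03 in the mean over stages, and -0.02, 0.02 and 0.08 at the 3 stages in turn. Over all genes the medians were -0.02, -0.02, -0.02 and -0.01. In bulk tissue, fewer cells of a type and less RNA per cell cannot be told apart.

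The 95% intervals were taken gene by gene and not adjusted for the number of genes. They do not give the size that a call required. Lmx1b at 13.5 dpc, at -2.05 ± 0.35, was itself not called (adjusted p = 0.153, limma). In the mean over stages, the 95% interval of each of the 38 genes lay within a 1.5-fold change in either direction. The lowest bound was -0.25, for Cdkn1b, and the highest 0.49, for Cdkn1a. At single stages, with 2 arrays against 2, 38, 37 and 36 intervals lay within 1.5-fold at 11.5, 12.5 and 13.5 dpc. The difference in KO effect between stages was called for 0 of 38 members and 0 of 18193 genes in each of the 3 comparisons of stages (limma, interaction). At an unadjusted p under 0.05, 0 members passed between 11.5 and 12.5 dpc, 0 between 12.5 and 13.5 dpc and 1 between 11.5 and 13.5 dpc, of 1132, 1546 and 377 genes in all.

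**Figure D2:**
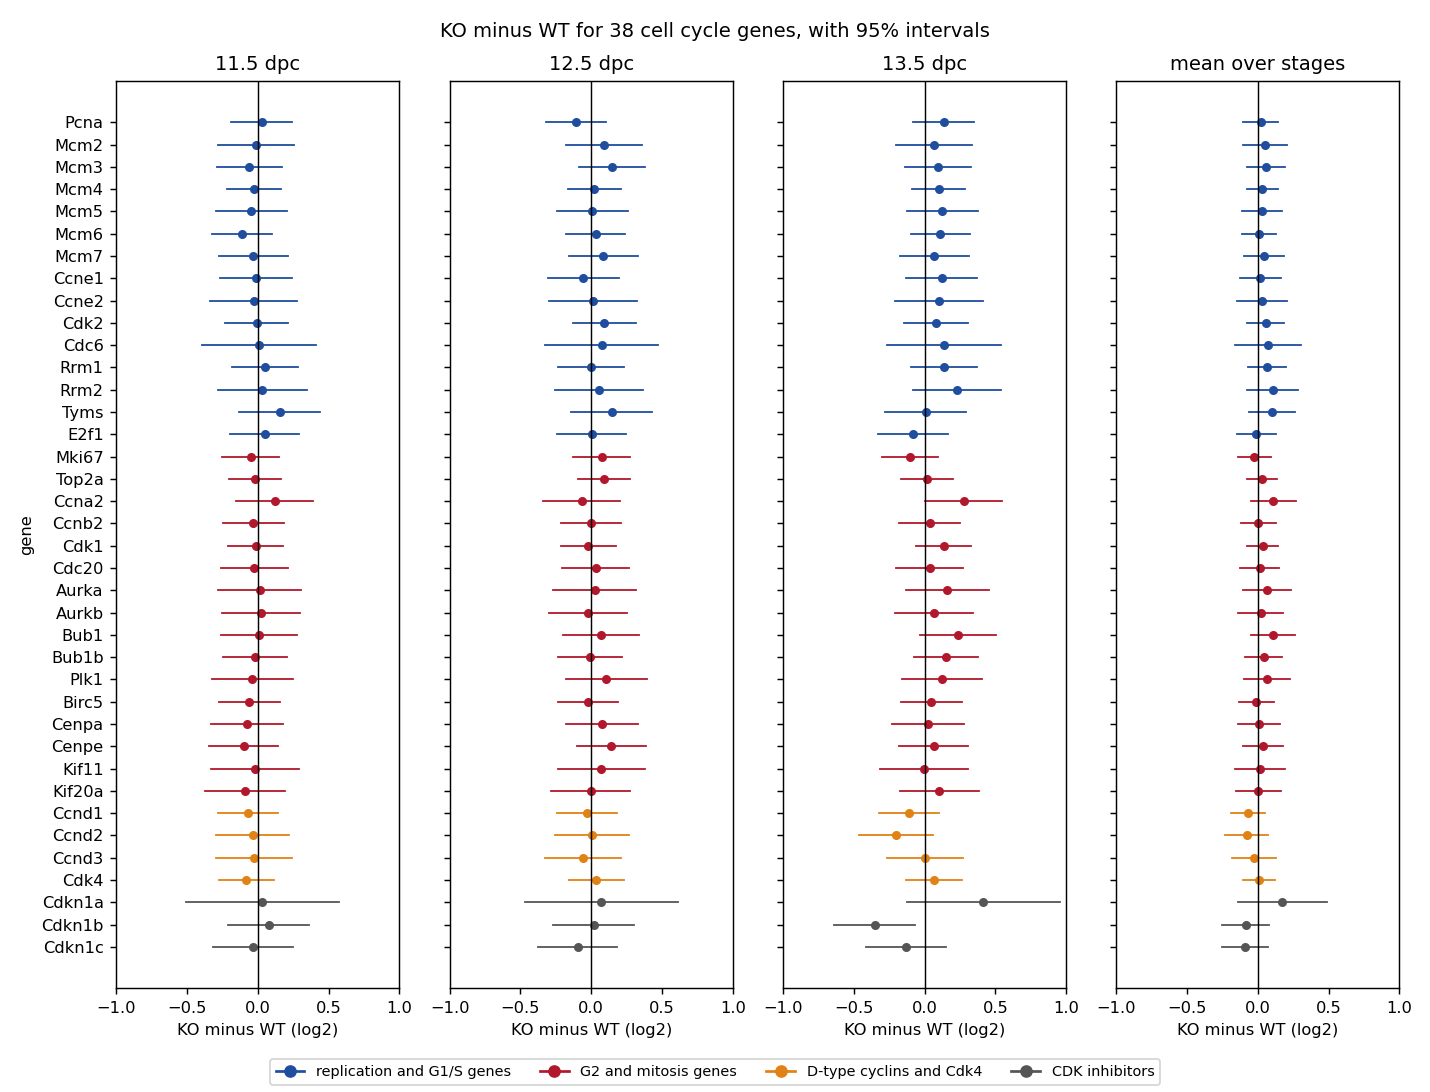
KO minus WT difference (x axis, log2) of 38 cell cycle genes (rows, coloured by role) at 3 stages and in their mean, with 95% intervals from limma. All intervals of the mean over stages cross 0, and the widest is that of Cdkn1a, from -0.14 to 0.49.

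Among the replication genes, Pcna encodes the sliding clamp of the DNA polymerases. Its WT arrays read 13.28 and 13.31 at 11.5 dpc, 13.15 and 13.20 at 12.5 dpc and 12.96 and 13.06 at 13.5 dpc. Its KO arrays read 13.32 and 13.33 at 11.5 dpc, 12.97 and 13.16 at 12.5 dpc and 13.07 and 13.22 at 13.5 dpc. The genotypes overlapped at 12.5 dpc, and the KO arrays were the higher ones at 11.5 and 13.5 dpc by 0.03 ± 0.10 and 0.14 ± 0.10 (SE). Mcm2 to Mcm7 encode the 6 subunits of the replicative helicase. Mcm3 read 11.71 and 11.64 at 11.5 dpc, 11.40 and 11.42 at 12.5 dpc and 11.37 and 11.27 at 13.5 dpc in WT. In KO it read 11.70 and 11.53 at 11.5 dpc, 11.43 and 11.68 at 12.5 dpc and 11.39 and 11.44 at 13.5 dpc. Both KO arrays of Mcm3 lay above both WT arrays at 12.5 and 13.5 dpc, without passing the test (adjusted p = 0.666 and 0.978, limma).

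None of the remaining helicase subunits was called between genotypes. Mcm2 read 11.68 and 11.64 at 11.5 dpc, 11.41 and 11.32 at 12.5 dpc and 11.33 and 11.22 at 13.5 dpc in WT and 11.67 and 11.62 at 11.5 dpc, 11.33 and 11.57 at 12.5 dpc and 11.19 and 11.50 at 13.5 dpc in KO, overlapping at every stage. Mcm4 read 11.88 and 11.90 at 11.5 dpc, 11.83 and 11.79 at 12.5 dpc and 11.64 and 11.60 at 13.5 dpc in WT and 11.85 and 11.87 at 11.5 dpc, 11.79 and 11.88 at 12.5 dpc and 11.65 and 11.78 at 13.5 dpc in KO. Mcm4 was lower in both KO arrays at 11.5 dpc and higher in both at 13.5 dpc, with differences of -0.03 and 0.10. The WT arrays of Mcm5 read 12.02 and 11.98 at 11.5 dpc, 11.75 and 11.67 at 12.5 dpc and 11.75 and 11.71 at 13.5 dpc, and its KO arrays 12.01 and 11.91 at 11.5 dpc, 11.59 and 11.85 at 12.5 dpc and 11.74 and 11.97 at 13.5 dpc. For Mcm6 the WT values were 12.28 and 12.29 at 11.5 dpc, 12.10 and 12.04 at 12.5 dpc and 12.004 and 12.03 at 13.5 dpc, and the KO values 12.21 and 12.12 at 11.5 dpc, 12.03 and 12.17 at 12.5 dpc and 12.04 and 12.22 at 13.5 dpc. Mcm5 overlapped at every stage, and Mcm6 was below WT at 11.5 dpc and above it at 13.5 dpc in both KO arrays.

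Among the mitotic genes, Top2a encodes the topoisomerase that untangles sister chromatids. It read 12.49 and 12.40 at 11.5 dpc, 12.60 and 12.52 at 12.5 dpc and 12.41 and 12.40 at 13.5 dpc in WT and 12.44 and 12.42 at 11.5 dpc, 12.61 and 12.69 at 12.5 dpc and 12.43 and 12.42 at 13.5 dpc in KO, with KO minus WT differences of at most 0.09. Cdk1 is the kinase that drives entry into mitosis. Its values were 11.70 and 11.79 at 11.5 dpc, 11.68 and 11.68 at 12.5 dpc and 11.54 and 11.53 at 13.5 dpc in WT and 11.73 and 11.73 at 11.5 dpc, 11.59 and 11.74 at 12.5 dpc and 11.63 and 11.71 at 13.5 dpc in KO. Cdk1 was above WT in both KO arrays only at 13.5 dpc, of the 3 stages. Ccna2 encodes cyclin A2, the partner of both Cdk2 and Cdk1. Its WT arrays read 11.77 and 11.88 at 11.5 dpc, 11.68 and 11.61 at 12.5 dpc and 11.46 and 11.78 at 13.5 dpc, and its KO arrays 11.90 and 11.99 at 11.5 dpc, 11.46 and 11.70 at 12.5 dpc and 11.84 and 11.95 at 13.5 dpc. At 13.5 dpc the KO arrays of Ccna2 lay 0.28 ± 0.12 above the WT arrays, with an unadjusted p of 0.0485 and an adjusted p of 0.842 (limma).

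The other member with an unadjusted p under 0.05 was Cdkn1b, which encodes the inhibitor p27. Its WT arrays read 8.77 and 8.46 at 11.5 dpc, 8.89 and 8.72 at 12.5 dpc and 9.26 and 9.16 at 13.5 dpc. Its KO arrays read 8.77 and 8.60 at 11.5 dpc, 8.76 and 8.88 at 12.5 dpc and 8.97 and 8.74 at 13.5 dpc. At 13.5 dpc both KO arrays were below both WT arrays, with a difference of -0.35 ± 0.13 (unadjusted p = 0.0212, adjusted p = 0.762, limma). Cdkn1a encodes p21, the inhibitor known as a p53 target. It read 9.37 and 9.41 at 11.5 dpc, 8.96 and 9.26 at 12.5 dpc and 8.73 and 8.54 at 13.5 dpc in WT. In KO the values were 9.42 and 9.42 at 11.5 dpc, 9.53 and 8.83 at 12.5 dpc and 8.70 and 9.39 at 13.5 dpc. The KO arrays of Cdkn1a spanned 0.70 log2 units at 13.5 dpc and 0.69 at 12.5 dpc, which gave it the largest standard error of the set, 0.24. Cdkn1c encodes p57, and read 12.87 and 12.86 at 11.5 dpc, 13.01 and 13.09 at 12.5 dpc and 13.01 and 13.04 at 13.5 dpc in WT and 12.78 and 12.88 at 11.5 dpc, 13.17 and 12.73 at 12.5 dpc and 12.92 and 12.87 at 13.5 dpc in KO.

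Counted by position alone, both KO arrays lay above both WT arrays for 4, 4 and 12 of 38 members at 11.5, 12.5 and 13.5 dpc, against 12.8%, 15% and 11.6% of all genes. Both lay below for 8, 0 and 4 members, against 26.8%, 19.3% and 22.3% of all genes. The 12 genes at 13.5 dpc were Pcna, Mcm3, Mcm4, Mcm6, Rrm1, Rrm2, Top2a, Ccna2, Cdk1, Bub1, Bub1b and Plk1. Some cleared WT by very little. The lower KO array of Plk1 read 10.6204 and the higher WT array 10.6203, and for Top2a these were 12.4183 and 12.4137. The 4 below WT were Mki67, Ccnd2, Cdkn1b and Cdkn1c. All 15 cartilage markers were lower in KO than in WT at this stage, with a median difference of -0.83 and 0 called. They were also lower for 15 of 15 markers at 11.5 and 12.5 dpc (medians -0.27 and -0.49). All 9 erythroid markers measured, of 12 listed, were higher at 13.5 dpc, with a median of 0.61 and 0 called. The KO arrays differed here: the median level of the list was 7.60 in the first and 8.72 in the second. The WT arrays, at 7.76 and 7.38, lay on either side of the first KO array. The part of these cell types in the members' values was not tested.

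The 2 pools of a KO group differed from each other at 12.5 and 13.5 dpc. At 12.5 dpc, 32 of 38 members were higher in the second KO array than in the first, with a median difference of 0.24 log2 units. Among the replication and mitosis genes 30 of 31 were higher, with a median of 0.24. The exception was Tyms, thymidylate synthase, at -0.15. Its probe set, 1 of 4 for the gene, had a mean of 7.05, where the median of all values was 6.28. Of all genes, 47.4% were higher in that array, with a median of -0.02. The loading factor of the helicase, Cdc6, differed by 0.64, the ribonucleotide reductase subunit Rrm2 by 0.50 and the chromosomal passenger kinase Aurkb by 0.43. Cdkn1a, Cdkn1c and Ccnd3 differed the other way, by -0.69, -0.44 and -0.34.

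At 13.5 dpc, 31 of 38 members were higher in the second KO array, with a median of 0.14, and 28 of the 31 replication and mitosis genes. Of all genes 54.9% were higher there, with a median of 0.03. Here Cdkn1a was 0.70 higher in the second array, where at 12.5 dpc it was the lower. In the 4 other groups 9 to 17 of the 38 members were higher in the second array, with medians between -0.06 and -0.01.

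**Figure D3:**
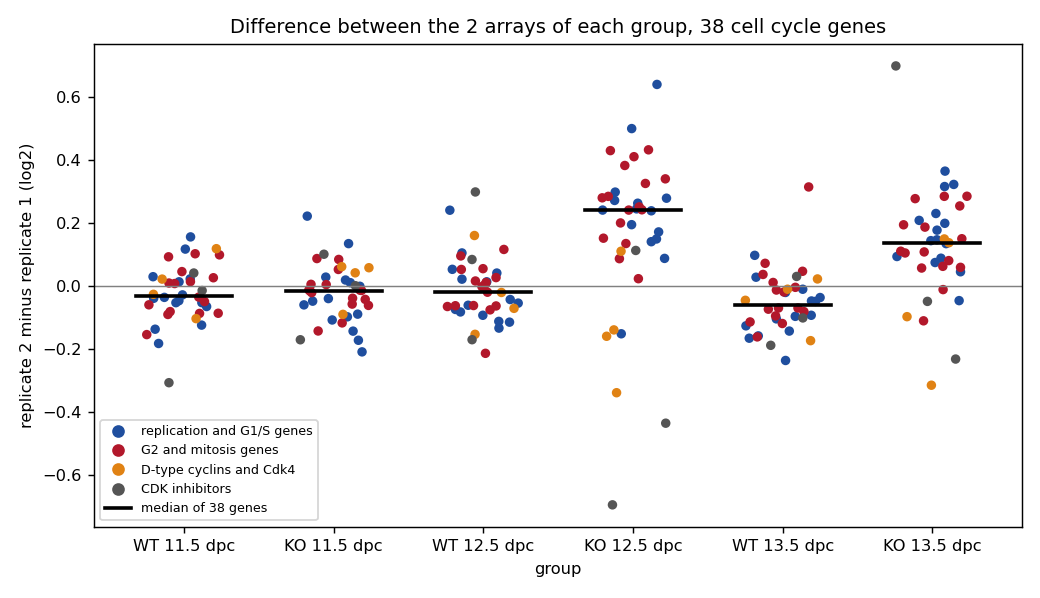
Second minus first array of each group (y axis, log2) for 38 cell cycle genes, coloured by role, with the median as a black bar. The KO medians at 12.5 and 13.5 dpc are 0.24 and 0.14, and the other 4 groups have medians from -0.06 to -0.01.

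Other genes differed between the same pools. In the second KO array at 12.5 dpc, all 15 cartilage markers were lower than in the first (median -0.88), 15 of 16 skeletal muscle markers were lower (median -1.24) and 9 of 9 erythroid markers were higher (median 0.59). The summed level of the cartilage list was 14.37 in the first array and 13.88 in the second, against 14.39 and 14.44 in WT. That of the muscle list was 14.77 and 13.35, against 14.32 and 14.51 in WT. The heat shock gene Hspa1a read 9.36 in the second array and 5.13 in the first. Its list of 14 heat shock and early stress genes was split, with 7 higher and 7 lower in the second array (median -0.09, range -1.07 to 4.23). The median level of that list was 8.11 in the first KO array and 9.44 in the second, against 7.28 and 7.69 in WT. At 13.5 dpc the second KO array had lower values for 15 of 15 cartilage markers (median -0.48) and higher values for 7 of 9 erythroid markers (median 0.74) and 15 of 16 muscle markers (median 0.26). The part of these markers in the members' values was not tested.

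The KO minus WT medians depended on these arrays. Without the second KO array at 12.5 dpc, the median of the members at that stage was -0.09, and without the first it was 0.13. At 13.5 dpc the median was 0.01 without the second KO array and 0.17 without the first. The mean over stages had a median of -0.01 without the second KO array at 12.5 dpc, and -0.04 without both second arrays. The call of 0 members held in each of these.

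The second question was how the genes changed as the limb developed. From 11.5 to 12.5 dpc in WT, 7 of 38 members were called, 2 higher and 5 lower, against 19.8% of all genes (6.67% higher, 13.1% lower). From 12.5 to 13.5 dpc, 11 were called, 4 higher and 7 lower, against 25.3% (14.5% higher, 10.8% lower). In KO, 6 members were called in the first step, 3 in each direction, against 16.8% of all genes (6.22% higher, 10.6% lower). In the second, 7 were called, 2 higher and 5 lower, against 18.6% (10.4% higher, 8.22% lower). As shares, 18.4% and 28.9% of the members were called in WT and 15.8% and 18.4% in KO, near the share of all genes in each step. The consecutive steps of a genotype share the 12.5 dpc arrays, so that a rise followed by a fall is not 2 independent observations.

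Ccne2, which encodes cyclin E2, the partner of Cdk2 at the onset of DNA synthesis, had the largest difference of the 38 members in each of the 2 single steps in both genotypes, though not over the whole interval. Its WT arrays read 8.67 and 8.55 at 11.5 dpc, 9.23 and 9.17 at 12.5 dpc and 8.14 and 7.97 at 13.5 dpc. The KO arrays read 8.68 and 8.47 at 11.5 dpc, 9.09 and 9.33 at 12.5 dpc and 7.97 and 8.34 at 13.5 dpc. All 4 arrays at 12.5 dpc lay above all 4 at 11.5 dpc, which lay above all 4 at 13.5 dpc. Ccne2 rose 1.51-fold in WT and 1.55-fold in KO in the first step (log2 0.59 ± 0.14 and 0.64 ± 0.14, adjusted p = 0.0161 and 0.0139, limma). It then fell 2.21-fold in WT and 2.08-fold in KO (-1.15 ± 0.14 and -1.06 ± 0.14, adjusted p = 0.00078 and 0.00175). The WT fall was called under each of 22 alternative settings, and the KO fall under 21, the exception being a fit to the groups compared alone (adjusted p = 0.0699). Without either WT array at 11.5 or 12.5 dpc, the WT rise was not called (largest adjusted p = 0.121). The KO rise was not called without the second KO array at 11.5 dpc or at 12.5 dpc, or in a fit to the groups compared alone. Over the 22 alternative settings the KO rise lay between 0.52 and 0.76.

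Ccne1, which encodes the paralogous cyclin E1, had the reverse course. It read 10.55 and 10.37 at 11.5 dpc, 9.97 and 9.85 at 12.5 dpc and 10.26 and 10.16 at 13.5 dpc in WT. In KO it read 10.52 and 10.37 at 11.5 dpc, 9.77 and 9.94 at 12.5 dpc and 10.23 and 10.43 at 13.5 dpc. The 12.5 dpc arrays were the lowest in both genotypes, with no overlap with 11.5 dpc. Ccne1 fell 1.46-fold in WT and 1.51-fold in KO in the first step (-0.55 ± 0.11 and -0.59 ± 0.11, adjusted p = 0.00974 and 0.00845, limma). The second step was called in KO alone, at 0.48 ± 0.11 (adjusted p = 0.0188), with 0.30 ± 0.11 in WT, and the difference between genotypes in this step was not called. A second Ccne1 probe set, dimmer by mean, gave -0.16 for the KO second step and -0.30 for the WT first step.

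**Figure D4:**
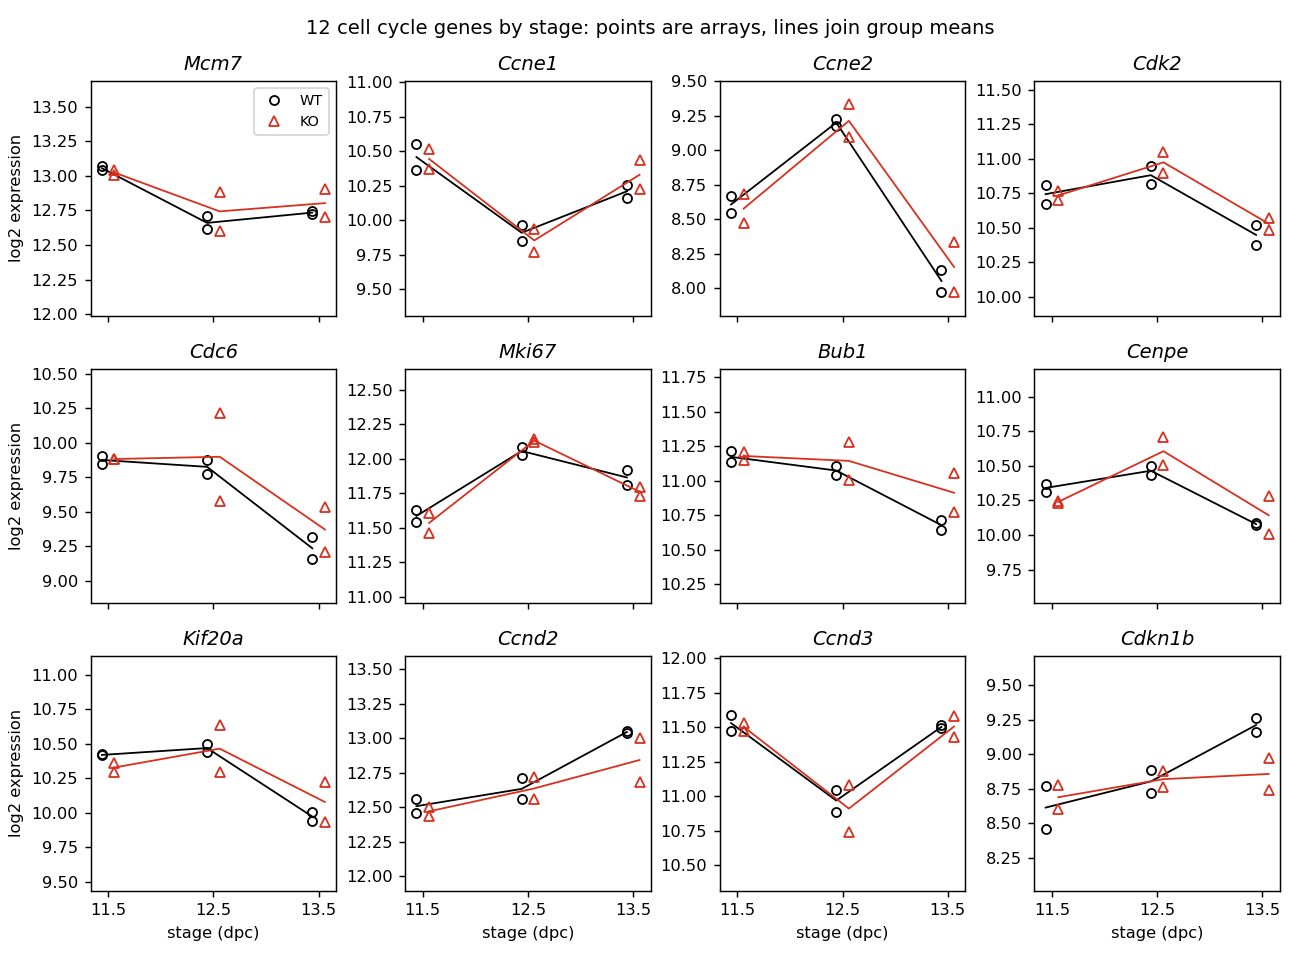
Log2 expression (y axis) of 12 cell cycle genes at 3 stages (x axis, dpc) in WT (black circles) and KO (red triangles), with each point 1 array and lines joining group means; every panel spans the same number of log2 units. Ccne2 peaks at 12.5 dpc in both genotypes, and Ccne1 and Ccnd3 are lowest there.

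Of the other replication and G1/S genes, Cdk2, the kinase bound by both E-type cyclins, read 10.81 and 10.68 at 11.5 dpc, 10.95 and 10.82 at 12.5 dpc and 10.52 and 10.38 at 13.5 dpc in WT and 10.77 and 10.71 at 11.5 dpc, 10.90 and 11.05 at 12.5 dpc and 10.49 and 10.57 at 13.5 dpc in KO. Its 13.5 dpc arrays lay below all others in both genotypes. Cdk2 fell in the second step by 0.43 ± 0.10 in WT and by 0.44 ± 0.10 in KO on the log2 scale (adjusted p = 0.0124 and 0.0153, limma). Cdc6 read 9.90 and 9.85 at 11.5 dpc, 9.77 and 9.88 at 12.5 dpc and 9.32 and 9.16 at 13.5 dpc in WT and 9.88 and 9.88 at 11.5 dpc, 9.58 and 10.22 at 12.5 dpc and 9.21 and 9.53 at 13.5 dpc in KO. It fell in WT in the second step (-0.59 ± 0.18, adjusted p = 0.0379), and the KO difference of -0.53 was not called. That WT call was lost without any 1 of the WT arrays or of the KO arrays at 11.5 dpc.

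E2f1, an activating member of the E2F family, read 9.24 and 9.19 at 11.5 dpc, 8.87 and 8.91 at 12.5 dpc and 9.31 and 9.18 at 13.5 dpc in WT. Its KO values were 9.20 and 9.33 at 11.5 dpc, 8.75 and 9.05 at 12.5 dpc and 9.18 and 9.14 at 13.5 dpc. It fell in KO in the first step (-0.37 ± 0.11, adjusted p = 0.0466, limma) and rose in WT in the second (0.35 ± 0.11, adjusted p = 0.0421), and these calls were kept in 4 and 9 of 22 alternatives. The dimmest E2f1 probe set gave 0.18 and -0.01 for them. Mcm7 read 13.07 and 13.04 at 11.5 dpc, 12.71 and 12.61 at 12.5 dpc and 12.74 and 12.72 at 13.5 dpc in WT and 13.04 and 13.005 at 11.5 dpc, 12.60 and 12.88 at 12.5 dpc and 12.70 and 12.90 at 13.5 dpc in KO. Mcm7 fell in the WT first step (-0.40 ± 0.11, adjusted p = 0.0309), a call kept in 12 of 22 alternatives, and 1 of its other 3 probe sets gave 0.03.

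Mki67 encodes Ki-67, the surface protein of mitotic chromosomes used as a stain for cycling cells. In WT it read 11.63 and 11.54 at 11.5 dpc, 12.09 and 12.02 at 12.5 dpc and 11.92 and 11.81 at 13.5 dpc. In KO it read 11.61 and 11.46 at 11.5 dpc, 12.12 and 12.14 at 12.5 dpc and 11.73 and 11.79 at 13.5 dpc. The 11.5 dpc arrays were lower than all others in both genotypes. Mki67 rose 1.39-fold in WT and 1.51-fold in KO in the first step (0.47 ± 0.09 and 0.60 ± 0.09, adjusted p = 0.00711 and 0.00313, limma). The WT call was lost without the second WT array at 11.5 dpc (adjusted p = 0.0741), and the KO call in a fit to the groups compared alone (adjusted p = 0.0621). In the second step Mki67 fell in KO (-0.37 ± 0.09, adjusted p = 0.0203), a call lost without the second KO array at 12.5 dpc or the first at 13.5 dpc. The WT difference of -0.19 was not called.

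The members that encode kinesins are Cenpe, Kif11 and Kif20a. Cenpe, the kinesin of the kinetochore, read 10.37 and 10.31 at 11.5 dpc, 10.50 and 10.43 at 12.5 dpc and 10.09 and 10.07 at 13.5 dpc in WT and 10.25 and 10.23 at 11.5 dpc, 10.51 and 10.71 at 12.5 dpc and 10.004 and 10.28 at 13.5 dpc in KO. It fell in the second step by 0.39 ± 0.11 in WT and by 0.46 ± 0.11 in KO (adjusted p = 0.0273 and 0.0173, limma), after a KO rise of 0.37 ± 0.11 in the first step (adjusted p = 0.045). Kif11, the kinesin that separates the spindle poles, read 9.92 and 9.83 at 11.5 dpc, 10.23 and 10.01 at 12.5 dpc and 9.74 and 9.58 at 13.5 dpc in WT and 9.86 and 9.85 at 11.5 dpc, 9.98 and 10.41 at 12.5 dpc and 9.71 and 9.60 at 13.5 dpc in KO. In the same step it fell by 0.46 ± 0.14 in WT and by 0.53 ± 0.14 in KO (adjusted p = 0.0359 and 0.0255), and the KO call was lost without the second KO array at 12.5 dpc, which read 10.41, or either KO array at 13.5 dpc. Kif20a, a kinesin of the central spindle, read 10.42 and 10.42 at 11.5 dpc, 10.44 and 10.50 at 12.5 dpc and 10.01 and 9.94 at 13.5 dpc in WT and 10.36 and 10.30 at 11.5 dpc, 10.30 and 10.64 at 12.5 dpc and 9.94 and 10.22 at 13.5 dpc in KO. Its WT difference was -0.50 ± 0.13 (adjusted p = 0.0178), and its KO difference of -0.39 was not called.

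Of the mitotic kinases, Bub1, which acts in the spindle checkpoint, read 11.21 and 11.13 at 11.5 dpc, 11.11 and 11.04 at 12.5 dpc and 10.71 and 10.64 at 13.5 dpc in WT and 11.21 and 11.15 at 11.5 dpc, 11.004 and 11.28 at 12.5 dpc and 10.77 and 11.06 at 13.5 dpc in KO. It fell in WT in the second step (-0.40 ± 0.12, adjusted p = 0.0366, limma), with -0.23 in KO. Plk1, which acts from mitotic entry to cytokinesis, read 10.87 and 10.88 at 11.5 dpc, 10.45 and 10.46 at 12.5 dpc and 10.57 and 10.62 at 13.5 dpc in WT and 10.80 and 10.88 at 11.5 dpc, 10.36 and 10.77 at 12.5 dpc and 10.62 and 10.81 at 13.5 dpc in KO. It fell in WT in the first step (-0.42 ± 0.13, adjusted p = 0.0442), with -0.27 in KO. These calls were kept in 13 and 12 of 22 alternatives. The remaining G2 and mitosis genes were not called in either single step: Top2a, Ccna2, Ccnb2, Cdk1, Cdc20, Aurka, Aurkb, Bub1b, Birc5 and Cenpa, with WT differences between -0.36 and 0.11.

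Ccnd3 and Ccnd2 encode D-type cyclins and moved differently. Ccnd3 read 11.47 and 11.59 at 11.5 dpc, 10.89 and 11.05 at 12.5 dpc and 11.49 and 11.51 at 13.5 dpc in WT. In KO it read 11.47 and 11.53 at 11.5 dpc, 11.08 and 10.74 at 12.5 dpc and 11.43 and 11.58 at 13.5 dpc. The 12.5 dpc arrays were the lowest in both genotypes. It fell in the first step by 0.56 ± 0.12 in WT and by 0.59 ± 0.12 in KO (adjusted p = 0.0113 and 0.0105, limma) and rose in the second by 0.53 ± 0.12 and 0.59 ± 0.12 (adjusted p = 0.0108 and 0.00969). Its dimmest probe set, with a mean of 4.56, below the median of all values, gave the opposite sign in all 4 differences, and the mean of its probe sets was not called.

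Ccnd2 read 12.56 and 12.46 at 11.5 dpc, 12.71 and 12.56 at 12.5 dpc and 13.05 and 13.04 at 13.5 dpc in WT and 12.44 and 12.50 at 11.5 dpc, 12.72 and 12.56 at 12.5 dpc and 13.001 and 12.69 at 13.5 dpc in KO. It rose in WT in the second step (0.41 ± 0.12, adjusted p = 0.028, limma), with 0.21 in KO, and 2 of its 6 other probe sets gave -0.13 and -0.38. Ccnd1 read 11.79 and 11.76 at 11.5 dpc, 11.86 and 11.83 at 12.5 dpc and 11.84 and 11.67 at 13.5 dpc in WT and 11.75 and 11.66 at 11.5 dpc, 11.88 and 11.74 at 12.5 dpc and 11.69 and 11.59 at 13.5 dpc in KO, and was not called in any comparison run. Cdk4 read 13.15 and 13.17 at 11.5 dpc, 12.87 and 12.80 at 12.5 dpc and 12.89 and 12.84 at 13.5 dpc in WT and 13.06 and 13.10 at 11.5 dpc, 12.81 and 12.92 at 12.5 dpc and 12.86 and 12.999 at 13.5 dpc in KO. Cdk4 fell in the WT first step (-0.33 ± 0.09, adjusted p = 0.027), with -0.21 in KO. Of the inhibitors, Cdkn1b rose in WT in the second step (0.41 ± 0.13, adjusted p = 0.0437) on the values given above, a call kept in 12 of 22 alternatives. Its dimmer probe set, also below the median of all values, gave -0.09.

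Over the whole interval, from 11.5 to 13.5 dpc, 33 of 38 members were lower at the end in WT and 33 in KO, with medians of -0.27 and -0.13, against -0.01 for all genes in each genotype. This comparison was added after the data were seen. In WT, 9 members were called, 2 higher and 7 lower, against 15% of all genes (5.74% higher, 9.27% lower). The higher were Ccnd2 (0.54 ± 0.12) and Cdkn1b (0.60 ± 0.13, both adjusted p = 0.0169, limma). The lower were Cdc6 (-0.64), Ccne2 (-0.55), Bub1 (-0.49), Kif20a (-0.45), Birc5 (-0.37), Mcm3 (-0.35) and Cdk4 (-0.30). In KO, 0 members were called (limma, 1.03% of all genes, with 0.55% higher and 0.484% lower). At an unadjusted p under 0.05, 8 members passed, a count not set beside that of all genes. Both 13.5 dpc arrays lay below both 11.5 dpc arrays for 29 members in WT and 23 in KO, against 36.6% and 28.1% of all genes.

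By role, 14 of 15 replication and G1/S genes were lower at 13.5 than at 11.5 dpc in WT and 15 of 15 in KO (medians -0.30 and -0.20). Of the 16 G2 and mitosis genes, 15 were lower in each genotype (medians -0.24 and -0.12), and the exception in both was Mki67, at 0.28 in WT and 0.23 in KO. All 6 helicase subunits were lower in both genotypes, from -0.39 for Mcm2 to -0.26 for Mcm6 in WT and from -0.30 to -0.04 for the same genes in KO. Cdkn1a was lower by a difference of -0.75 ± 0.24 in WT (adjusted p = 0.0638) and -0.37 in KO. Birc5, which encodes the chromosomal passenger survivin, read 11.57 and 11.62 at 11.5 dpc, 11.43 and 11.54 at 12.5 dpc and 11.29 and 11.17 at 13.5 dpc in WT and 11.56 and 11.52 at 11.5 dpc, 11.39 and 11.53 at 12.5 dpc and 11.20 and 11.35 at 13.5 dpc in KO.

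The counts of calls depended on single arrays, among all genes as well as among the members. Of all genes, fewer were called in WT without a WT array of the stages compared. More were called over the WT interval without a KO array at 12.5 dpc. The counts that follow are of members. The WT count for the first step was 1 or 2 without any 1 of the WT arrays at 11.5 and 12.5 dpc. For the second step it was 1 to 4 without any 1 of the WT arrays at 12.5 and 13.5 dpc, and 6 or 7 without an array of either genotype at 11.5 dpc. Over the whole interval it was 0 or 1 without any 1 of the 4 WT arrays compared, 4 or 5 without a KO array at 11.5 dpc or a WT array at 12.5 dpc, and 18 without either KO array at 12.5 dpc. In KO the first step gave 1 or 2 without an 11.5 dpc KO array, 4 without any 1 WT array, and 12 without the second KO array at 12.5 dpc. The KO second step gave 12 without the first KO array at 12.5 dpc, 4 without the second and 3 without the first at 13.5 dpc. Over the KO interval it was 2 without either KO array at 12.5 dpc and 3 without the second at 13.5 dpc. Of the 40 calls of a member in a step or over the interval, 4 were kept through each single omission: Ccne2 in the second step in WT and KO, Mki67 in the KO first step and Ccnd3 in the KO second step. Through all 12 of these omissions the WT median of the whole interval stayed between -0.29 and -0.25, and the KO median between -0.22 and -0.08.

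The steps of the 2 genotypes, which share no array, can be set side by side. In the first step, 4 genes were called in both: Ccne1, Ccne2, Mki67 and Ccnd3, which is 57.1% of the WT calls and 66.7% of the KO calls. Of all genes, 2013 were called in both, 55.9% of the WT calls and 65.9% of the KO calls. In the second, 5 were: Ccne2, Cdk2, Cenpe, Kif11 and Ccnd3, which is 45.5% and 71.4%, against 49% and 66.7% for all genes. The sign was the same in both genotypes for 36 of 38 members in the first step (94.7%, against 75.3% of all genes) and for 34 in the second (89.5%, against 76.1%). Each step compares the same 2 array series in both genotypes.

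**Figure D5:**
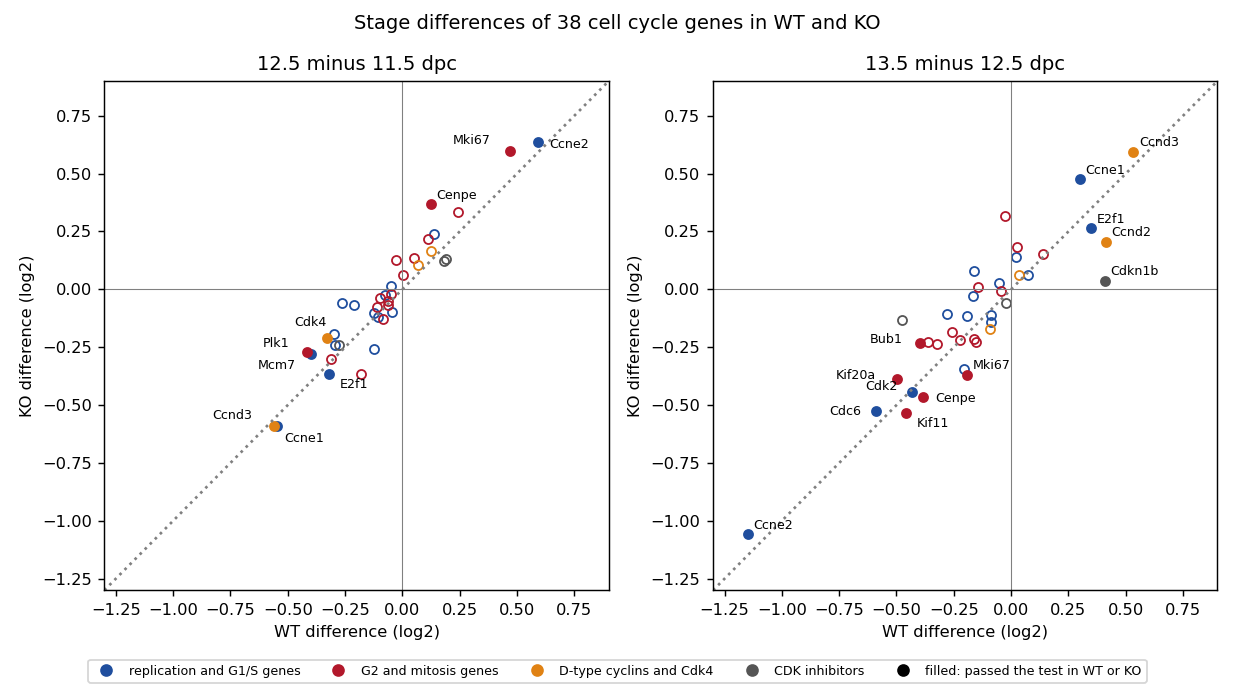
KO difference (y axis, log2) against WT difference (x axis, log2) of 38 cell cycle genes in the steps from 11.5 to 12.5 dpc and from 12.5 to 13.5 dpc, coloured by role, with the dotted line marking equal differences. Filled, named points passed the test in WT or KO, and Ccne2 is farthest from 0 in both panels.

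The scaling of the arrays moved the first step. With each array centred on its median, the median of all genes shifted by 0.13 in the WT first step and by -0.10 in the second, and the members shifted with it, so that the members' median relative to all genes stayed at -0.05 and -0.16. The members' own medians became 0.05 and -0.26, from -0.08 and -0.16. The calls became 2 higher and 2 lower in the first step and 1 higher and 10 lower in the second. Among all genes called, the share that was higher went from 33.7% to 64.1% in the first step and from 57.3% to 35% in the second. In KO it went from 37% to 60.3% and from 55.8% to 37.4%, and the members' calls became 3 higher and 2 lower, then 1 higher and 7 lower. With quantile normalization repeated, the shares were 46.5% and 50.1% in WT and 47% and 51.5% in KO.

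Other genes of the pathway were listed apart from the members, and the counts that follow are of genes called. Of 35 other replication genes measured (37 listed), 0 were called higher and 7 lower in the WT first step (all genes 6.67% and 13.1%), 0 and 13 in the second (14.5% and 10.8%), and 0 and 18 over the whole interval (5.74% and 9.27%). Called or not, 34 of 35 were lower at 13.5 than at 11.5 dpc in WT (median -0.44). Pold1, the catalytic subunit of DNA polymerase delta, fell in the first step (-0.80 ± 0.10, adjusted p = 0.00145, limma). Orc1, of the origin recognition complex, fell over the whole interval (-0.93 ± 0.16, adjusted p = 0.00738), as did Pola2, of the polymerase alpha and primase complex (-0.77 ± 0.13, adjusted p = 0.0067). In KO 0 were called higher, and 3, 5 and 2 lower in the steps and the interval (all genes 10.6%, 8.22% and 0.484% lower), with 34 of 35 lower over the interval, called or not (median -0.25). The 2 called over the KO interval were Uhrf1, which couples DNA methylation to replication, and Pola2, with differences of -0.74 ± 0.13 and -0.68 ± 0.13.

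Of 46 other mitosis genes, 4 were called higher and 8 lower in the WT first step, which is near the shares of all genes (6.67% and 13.1%). In the second step 2 and 11 were called (all genes 14.5% and 10.8%), and over the interval 1 and 7 (5.74% and 9.27%), with 42 of 46 lower, called or not (median -0.27). In KO 2 were called higher and 6 lower in the first step (6.22% and 10.6%), and 4 and 8 in the second (10.4% and 8.22%). Over the KO interval 0 were called (limma, 1.03% of all genes called), and 41 of 46 were lower (median -0.13). At an unadjusted p under 0.05, 6 passed over that interval, a count not set beside that of all genes. Cdca8, of the chromosomal passenger complex, fell in the first step in WT (-0.87 ± 0.12) and KO (-0.81 ± 0.12, adjusted p = 0.00201 and 0.00304, limma). Foxm1, the transcription factor of the mitotic programme, fell in the same step by 0.65 ± 0.10 in WT and by 0.70 ± 0.10 in KO, and rose in the KO second step (0.58 ± 0.10, adjusted p = 0.00512). Its WT arrays read 9.505 and 9.42, then 8.78 and 8.84, then 9.38 and 9.48 at the 3 stages. The 12.5 dpc arrays were the lowest, so that Foxm1 was higher again at 13.5 dpc in WT as well as in KO. Cdc25b, a phosphatase that activates Cdk1, rose in WT in the second step (0.77 ± 0.10, adjusted p = 0.000966), and the checkpoint gene Mad2l1 fell (-0.69 ± 0.16, adjusted p = 0.0114).

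Of 28 regulators of E2F, RB and the CDKs, 2 were called higher and 6 lower in the WT first step (all genes 6.67% and 13.1%) and 5 and 6 in the second (14.5% and 10.8%). In KO 3 were called higher and 3 lower (6.22% and 10.6%), then 3 and 4 (10.4% and 8.22%). The higher counts in WT were near the shares of all genes. E2f4, a mainly repressive E2F, fell in the first step (-1.11 ± 0.11 in WT and -1.03 ± 0.11 in KO) and rose in the second (0.94 ± 0.11 and 0.90 ± 0.11, all adjusted p at most 0.0014, limma). Rb1, the RB gene itself, rose (0.79 ± 0.18 in each genotype) and then fell (-0.95 ± 0.18 and -1.12 ± 0.18). Cdkn2c, which encodes the Cdk4 inhibitor p18, rose in the second step in WT (1.25 ± 0.17, adjusted p = 0.00116) and KO (0.69 ± 0.17, adjusted p = 0.0209). Between genotypes, 0 genes of these 3 lists were called at any stage (limma).

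Marker lists of differentiating cells also moved with stage. All 15 cartilage markers were higher at 13.5 than at 11.5 dpc in both genotypes, with medians of 1.49 in WT and 1.00 in KO. Of these, 12 were called in WT (5.74% of all genes higher) and 1 in KO (0.55%), and in the first step 8 were called higher in WT (6.67%) and 5 in KO (6.22%). The summed level of the cartilage list was 13.60 and 13.69 in WT and 13.40 and 13.60 in KO at 11.5 dpc, and 14.84 and 14.89 in WT and 14.56 and 14.01 in KO at 13.5 dpc. In the WT second step, at which the dissected part changed, 16 of 16 muscle markers were lower, 10 of them called (10.8% of all genes), and 8 of 10 surface ectoderm markers were higher, all 8 called (14.5%). Over the WT interval 7 of 9 erythroid markers were lower, 6 of them called (9.27%). The part of these cell types in the members' differences was not tested.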

How the data were processed

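The log2 expression values of 45101 probe sets were deposited by the authors. They come from RMA, which the submitters' processing notes name with no version or settings. Sorted values of the arrays differed by at most 0.242 at any rank. Probe sets were named through the platform annotation, with 34945 naming 1 gene, 932 several and 9160 none, and 64 controls left out. Symbols were checked against RefSeq GRCm38.p6, where 34741 probe sets matched. One probe set per gene, the one with the highest mean, gave 18193 genes.

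From these values, group means were fitted with limma 3.58.1 in R 4.3.3 (6 residual and 4.22 prior degrees of freedom), with 13 contrasts, of which the 2 over the whole interval were added after the data were seen. Tests were two-sided. Members, gene lists and markers were chosen with earlier results of these data known. Members of the set, genes called in a contrast, and up to 4 genes of each other list with the largest difference were named. A list's summed level is the log2 of the sum of its linear values. The fit was tested on simulated data. The alternatives were another scaling, arrays left out, the replicate number as a block, limma's trend and quality weights, a filter on dim genes, other probe sets, and fits to the compared groups alone. The labels do not say that the replicate numbers pair the samples, and the main fit used no block. Of 15 pairs of groups, 4 had a correlation of deviations over 0.1 (range -0.19 to 0.19), which cannot settle whether pools were paired. Each array pools limbs, and the number of arrays limits the precision.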

Additional observations from a re-analysis of the deposited data

How the results depend on the processing

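The call of 0 members between KO and WT was the same under each alternative run, in the mean and at each stage. With both second KO arrays at 12.5 and 13.5 dpc left out, the members' median KO minus WT difference at 12.5 dpc was -0.0872 and that of the KO effect between 11.5 and 12.5 dpc was -0.0616. The number of members called then rose to 13 and 18 in the WT first and second steps, 24 over the WT interval, 16 in the KO first step and 11 over the KO interval. With arrays centred on the median, 4 members were called in the WT first step and 5 over the WT interval. Of all genes, 3795 and 2482 were called there. The members' medians were 0.0498 in the WT first step, -0.2613 in the WT second and 0.0304 in the KO first. Array quality weights gave 11 members in the WT first step, 29 over the WT interval and 1 in the KO second step. Of all genes they called 4919, 6529 and 496 in these comparisons. An intensity trend with a robust prior gave 20 members over the WT interval, 12 in the KO first step and 11 in the KO second. Of all genes it called 3263, 3356 and 3765. Over the WT interval 19 members were called without dim genes, 5 with all probe sets tested and 24 with only the groups compared. In all, these settings called 3115 genes, 3798 probe sets and 5612 genes. In the KO first step 3 members and 2727 of all genes were called with the mean of probe sets. With only the groups compared, 0 members were called in each KO step, beside 0 and 8 of all genes.

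Leaving out 1 array at a time gave 1 to 10 calls in the WT first step, 1 to 14 in the second and 0 to 18 over the interval, and 1 to 12, 3 to 12 and 0 to 3 in KO. The number of all genes called moved as well. With 1 array left out, the members' medians ranged from -0.0114 to 0.0609 for the mean KO minus WT difference. At the 3 stages in turn they ranged from -0.0444 to 0.0019, from -0.0872 to 0.1345 and from 0.008 to 0.1668. For the KO effect they ranged from -0.0616 to 0.1596, from -0.0606 to 0.1318 and from 0.0308 to 0.1917 between 11.5 and 12.5, 12.5 and 13.5, and 11.5 and 13.5 dpc. For the WT steps and interval they ranged from -0.104 to -0.0562, from -0.1655 to -0.1394 and from -0.2873 to -0.2537, and for KO from -0.1451 to 0.0364, from -0.1619 to -0.0191 and from -0.2172 to -0.0775.

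Some other probe sets of a gene gave the opposite sign. For Mcm7 the WT first step was 0.0315. For Ccnd3 the WT steps were 0.353 and -0.2986 and the KO steps 0.1624 and -0.0652. For E2f1 the WT second step was -0.0126 and the KO first step 0.1839. For Ccnd2 the WT second step was -0.1301 and -0.3779. For Cdkn1b the WT second step was -0.0861 and the WT interval -0.162. For Ccne1 the KO second step was -0.1585. The cause was not tested.

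With the replicate number as a block, 7, 11 and 8 members were called in the WT steps and interval. In KO 5, 7 and 0 were called, and 0 between KO and WT. Of all genes, 3467, 4457 and 2630 were called in WT and 2837, 3186 and 66 in KO. The block ended the calls of E2f1 in the WT second and KO first steps, Cenpe in the KO first step, and Mcm3 and Cdk4 over the WT interval. The labels do not say that the numbers pair the samples. These 5 calls were kept in 4 to 10 of the 22 alternatives.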

Other observations

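Of 16 genes of p53 response and cell cycle exit measured, of 18 listed, 2 were called higher and 2 lower in the WT first step (all genes 6.67% and 13.1%), 3 and 0 in the second (14.5% and 10.8%), and 4 and 2 over the interval (5.74% and 9.27%). Perp, a p53 target that is also a desmosome gene of epithelia and stands in the surface ectoderm list as well, fell in the first step (-0.52 ± 0.10) and rose in the second (1.31 ± 0.10, adjusted p = 0.00015, limma). Gas1, a membrane protein known for its expression in arrested cells, rose over the WT interval (0.63 ± 0.12, adjusted p = 0.0103). Gadd45a, a stress-induced growth arrest gene, fell over the same interval (-0.73 ± 0.16, adjusted p = 0.0165). In KO, 0 of the 16 were called over the interval (limma, 1.03% of all genes), and 0 were called between KO and WT at any stage. At an unadjusted p under 0.05, 5 passed over the KO interval, a count not set beside that of all genes.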
